A study of Schmidtea mediterranea with 24 samples.

Results

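Transcripts of 2 planarian marker genes were followed through regeneration: smedwi-1, which marks neoblasts, and agat-1, which marks late epidermal progenitors. The members were set by contig ID, smedwi-1 as dd_Smed_v6_659_0_1 (2618 bases) and agat-1 as dd_Smed_v6_920_0_1 (1427 bases). No rule on their values was used, but earlier results of these data were known when they were chosen. They are 2 of the 28069 contig IDs counted and 2 of the 19761 that passed the filter on low counts. The deposited tables give IDs without gene names, so both names rest on the choice of the members. Each is the 1 contig of its component in the table, so no sister contig of that component was counted beside it. Planarians have further agat genes related to agat-1, whose contigs are not named in the tables. How reads that match several contigs were counted is not stated in the sources used, so the agat-1 counts are uncertain to that extent.

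Neoblasts are the dividing adult stem cells of planarians, from which the differentiated cells of the body are replaced. The gene smedwi-1 encodes a protein of the PIWI family and is the marker by which neoblasts are usually recognised. Cells that leave the neoblast pool for the epidermis stop dividing, move outward and pass through an early and then a late progenitor state, and agat-1 transcripts mark the late state. The name agat refers to glycine amidinotransferase, an enzyme of creatine synthesis. After amputation neoblasts proliferate and their progeny build the new tissue, including the epidermis that covers it. In bulk RNA, more cells of a type and more of its transcripts per cell cannot be told apart.

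The RNA came from Schmidtea mediterranea, asexual animals of the clonal line CIW4, whose food carried double-stranded RNA for egr-2 or, as control RNAi, for egfp. The gene egr-2 is named for the early growth response family of zinc finger transcription factors. There were 6 feedings of 2 µg each, then 7 days of starvation and amputation, and the third of each tail fragment nearest its anterior end was sampled at 0 h, 2 days and 4 days. The 6 groups of control RNAi and egr-2 RNAi at these times hold 4 biological replicates each, and a replicate pools 10 fragments. Each group is thus an average over animals of 1 clonal line, and RNAi lowers a transcript without removing the gene. The contig of egr-2 is not annotated in the tables, so the knockdown itself was not analysed here. Without annotation the tissue could not be checked against other markers, but both members had at least 4346 counts in every library.

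Total counts ran from 13449251 to 30829850 per library. Replicate 1 of egr-2 RNAi at 0 h stood apart from its group. Over 9997 IDs of at least 10 CPM (counts per 1000000 counts of a library), its log2 differences from the mean of its 3 mates had an SD of 0.337, against 0.109 to 0.195 in the other 23 libraries. Contrasts and ratio comparisons that rest on egr-2 RNAi at 0 h are therefore also given without it.

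The transcript of smedwi-1 rose in the first 2 days of regeneration and had come most of the way back down by 4 days. Levels are CPM scaled by TMM factors, which adjust for library composition. In control RNAi fragments at 0 h the 4 libraries stood at 543, 527, 534.2 and 534.0 CPM. At 2 days they stood at 948, 969, 1033 and 985 CPM, and at 4 days at 642, 631, 643 and 644 CPM. The 3 times did not overlap, with every 2 day library above every 4 day library and every 4 day library above every 0 h library. The group means were 534 ± 6.46, 984 ± 36.0 and 639.999 ± 6.04 CPM (SD, n = 4).

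In egr-2 RNAi fragments the same gene had 523, 537, 563 and 525 CPM at 0 h. It had 945, 982, 999 and 931 CPM at 2 days, and 623, 615, 662 and 647 CPM at 4 days. Here too the 3 times did not overlap, and at each time the range overlapped that of control RNAi. The means were 537 ± 18.4, 964 ± 31.4 and 637 ± 22.0 CPM (SD, n = 4).

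**Figure D1:**
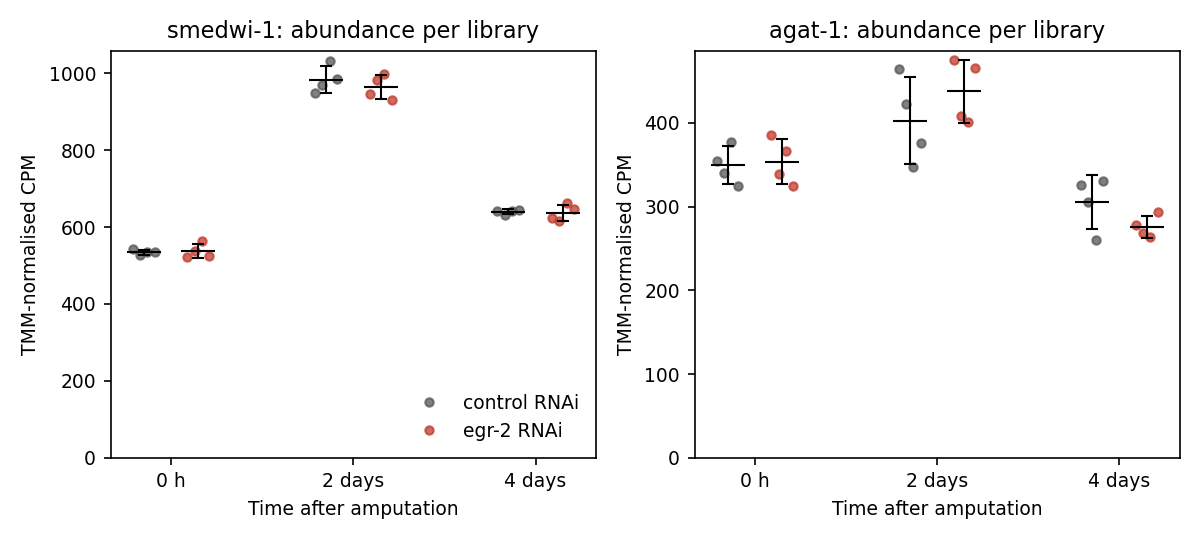
Abundance of smedwi-1 (left) and agat-1 (right) as TMM-normalised CPM against time after amputation; points are libraries, black bars the mean and SD of 4 libraries, grey control RNAi and red egr-2 RNAi. The smedwi-1 libraries at 2 days, from 931 to 1033 CPM, lie above all others, while agat-1 groups next to each other in level overlap and its 4 day libraries lie below the 2 day libraries of the same RNAi condition.

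Changes were tested by edgeR's quasi-likelihood test over all 24 libraries, with Benjamini-Hochberg adjustment over the 19761 IDs and a threshold of 0.05. From 0 h to 2 days smedwi-1 rose 1.84-fold in control RNAi fragments, with a 95% interval of 1.74 to 1.95 and a log2 change of 0.88 (SE 0.041, adjusted p = 1.1e-16). In egr-2 RNAi fragments it rose 1.79-fold, with an interval of 1.69 to 1.90 and a log2 change of 0.84 (SE 0.041, adjusted p = 2.1e-16). These calls are not rare, because 48.6% of all IDs were called over this interval in control RNAi and 50.0% in egr-2 RNAi. The size of the rise was less common, as 6.39% of tested IDs rose more in control RNAi and 7.90% in egr-2 RNAi.

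From 2 to 4 days smedwi-1 fell by 34.9% in control RNAi (log2 change of -0.62, SE 0.041, adjusted p = 2.7e-12). In egr-2 RNAi it fell by 34.0% (log2 change of -0.60, SE 0.041, adjusted p = 6.9e-12). The background of calls in this interval was 22.1% of IDs in control RNAi and 26.7% in egr-2 RNAi. At 4 days it was still above its level at 0 h, by 19.8% in control RNAi (log2 change of 0.26, adjusted p = 4.5e-06) and by 18.5% in egr-2 RNAi (log2 change of 0.25, adjusted p = 1.1e-05). Of all IDs, 50.0% and 50.6% were called between 0 h and 4 days. The comparisons with 0 h share the 0 h libraries within an RNAi condition. Each of these 6 calls was kept in every alternative setting, the omission of any compared library included. Without replicate 1 of egr-2 RNAi at 0 h the rises in egr-2 RNAi were 0.83 to 2 days and 0.23 to 4 days on the log2 scale. Scaling by total counts alone made the change from 0 h to 4 days larger, at 0.52 in control and 0.58 in egr-2 RNAi on the log2 scale, as it did for IDs in general. The median of all tested IDs in these contrasts was then 0.30 and 0.38, against 0.032 and 0.041 with TMM factors. The same scaling made the log2 rise from 0 h to 2 days larger, at 1.12 in control and 1.13 in egr-2 RNAi. Both values lay above the intervals given for that rise with TMM factors, where it was 0.88 and 0.84. The median of all tested IDs from 0 h to 2 days was 0.25 and 0.31, against 0.014 and 0.022 with TMM factors.

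No difference of smedwi-1 between egr-2 RNAi and control RNAi passed the test at any time, and the intervals were narrow. The log2 fold change was 0.0074 at 0 h (SE 0.041, adjusted p = 0.94), -0.029 at 2 days (SE 0.041, adjusted p = 0.89) and -0.0075 at 4 days (SE 0.041, adjusted p = 0.98). As folds of egr-2 RNAi over control, the 95% intervals ran from 0.948 to 1.07, from 0.925 to 1.04 and from 0.939 to 1.05. Called at these times were 5.69%, 0.364% and 2.35% of all IDs. Averaged over the 3 times the log2 fold change was -0.0096 (SE 0.024, adjusted p = 0.86), with a fold between 0.961 and 1.03, where 8.35% of IDs were called. Without replicate 1 of egr-2 RNAi at 0 h the effect at 0 h was 0.021 (adjusted p = 0.87) and the mean effect -0.0055 (adjusted p = 0.93). The effect of egr-2 RNAi on smedwi-1 also did not pass a test of difference between times. The interaction was -0.036 on the log2 scale for 2 days minus 0 h (95% interval -0.16 to 0.083, adjusted p = 0.91). It was -0.015 for 4 days minus 0 h (-0.13 to 0.10, adjusted p = 0.93) and 0.021 for 4 days minus 2 days (-0.097 to 0.14, adjusted p = 0.97). In these 3 contrasts 0.182%, 0.283% and 0.0911% of IDs were called. The interactions with 0 h were -0.050 and -0.028 when that library was left out, neither of them called.

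The mean level of agat-1 was highest at 2 days and, with TMM factors, lowest at 4 days in both RNAi conditions. With total counts alone the control mean was lowest at 0 h instead. In control RNAi fragments the libraries had 355, 340.3, 378 and 324 CPM at 0 h. They had 465, 423, 348 and 377 CPM at 2 days, and 326, 306, 261 and 331 CPM at 4 days. The 0 h range overlapped both later ranges, but every 4 day library was below every 2 day library. The means were 349 ± 22.7, 403 ± 51.5 and 306 ± 32.1 CPM (SD, n = 4).

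In egr-2 RNAi fragments agat-1 had 385, 339, 366 and 325 CPM at 0 h. It had 475, 409, 402 and 465 CPM at 2 days, and 278, 269, 263 and 294 CPM at 4 days. In this condition the 3 times did not overlap. The means were 354 ± 26.8, 438 ± 37.8 and 276 ± 13.2 CPM (SD, n = 4).

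The fall of agat-1 from 2 to 4 days was the firmest of its changes. It fell by 24.1% in control RNAi (log2 change of -0.40, SE 0.081, adjusted p = 4.5e-04) and fell by 36.9% in egr-2 RNAi (log2 change of -0.67, SE 0.081, adjusted p = 3.3e-07). All alternatives kept both calls. In this interval 22.1% of all IDs were called in control RNAi and 26.7% in egr-2 RNAi. The rise from 0 h to 2 days was 1.24-fold in egr-2 RNAi (log2 change of 0.31, SE 0.081, adjusted p = 0.0023), and every alternative kept that call as well. Without replicate 1 of egr-2 RNAi at 0 h it was 0.35 on the log2 scale (adjusted p = 7.6e-04). With total counts alone it was 0.60, with a median of 0.31 over all IDs. A rise of this size was common, as with TMM factors 50.0% of IDs were called from 0 h to 2 days in egr-2 RNAi and 28.1% rose more than agat-1.

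In control RNAi the rise of agat-1 from 0 h to 2 days was 1.15-fold (log2 change of 0.21, SE 0.081, adjusted p = 0.037). This call was near the threshold and was lost when some single libraries were left out. It was lost without control 0 h replicate 1, 2 or 4 (adjusted p = 0.054, 0.082 and 0.12 in edgeR's test). The log2 fold change was then 0.21, 0.19 and 0.17. The call was also lost without control 2 day replicate 1, where the log2 fold change was 0.13 (adjusted p = 0.20). Without control 2 day replicate 2 it was 0.18 and not called (adjusted p = 0.097). The call was kept without control 0 h replicate 3, at 0.25 (adjusted p = 0.023 in edgeR's test). It was also kept without control 2 day replicate 3 or 4, at 0.27 and 0.24 (adjusted p = 0.0077 and 0.029). Scaling by total counts alone gave 0.44, with a median of 0.25 over all IDs. With TMM factors 48.6% of IDs were called over this interval in control RNAi, and 33.9% rose more than agat-1.

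From 0 h to 4 days agat-1 fell by 22.0% in egr-2 RNAi (log2 change of -0.36, SE 0.081, adjusted p = 4.9e-04). Without replicate 1 of the 0 h group the log2 change was -0.32 (adjusted p = 0.0019). Of all IDs, 50.6% were called over this interval in egr-2 RNAi and 50.0% in control RNAi. In control RNAi the difference was -0.19 (SE 0.081) and missed the threshold with an adjusted p = 0.051. It was called without control 0 h replicate 4 (adjusted p = 0.035) and without control 4 day replicate 1 (0.037) or 4 (0.031). It was also called in DESeq2, at -0.21 (adjusted p = 0.026), and it was -0.12 and not called without control 4 day replicate 3. The fall from 0 h to 4 days is relative to the scaling. With total counts alone the log2 fold change was 0.072 in control and -0.021 in egr-2 RNAi, neither of them called. Both values lay below the medians of 0.30 and 0.38 over all IDs under that scaling. The value of agat-1 thus lay below the median of all IDs under either scaling, while its share of all counts was not called as different.

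No difference of agat-1 between the RNAi conditions passed the test. The log2 fold change was 0.019 at 0 h (SE 0.081, adjusted p = 0.92), and -0.023 with replicate 1 of egr-2 RNAi left out. At 2 days it was 0.12 (SE 0.081, adjusted p = 0.69), and 2 of 4 egr-2 RNAi libraries were above all control libraries. At 4 days it was -0.15 (SE 0.081, adjusted p = 0.50), and 0 of 4 egr-2 RNAi libraries were below all control libraries. The 95% intervals of the fold were wider than those of smedwi-1, from 0.903 to 1.14, from 0.969 to 1.22 and from 0.804 to 1.01. The mean effect over the 3 times was -0.0032 (SE 0.047, adjusted p = 0.98), with a fold between 0.934 and 1.07. The effect at 4 days minus that at 2 days was -0.27 on the log2 scale, with a 95% interval of -0.50 to -0.033 for this contrast alone. Adjusted over all IDs its p was 0.60, so the difference was not called. The other interactions were 0.10 for 2 days minus 0 h (-0.13 to 0.34, adjusted p = 0.86) and -0.17 for 4 days minus 0 h (-0.40 to 0.068, adjusted p = 0.53). With replicate 1 of egr-2 RNAi at 0 h left out, the mean effect was -0.017 and these interactions were 0.14 and -0.13, none of them called.

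**Figure D2:**
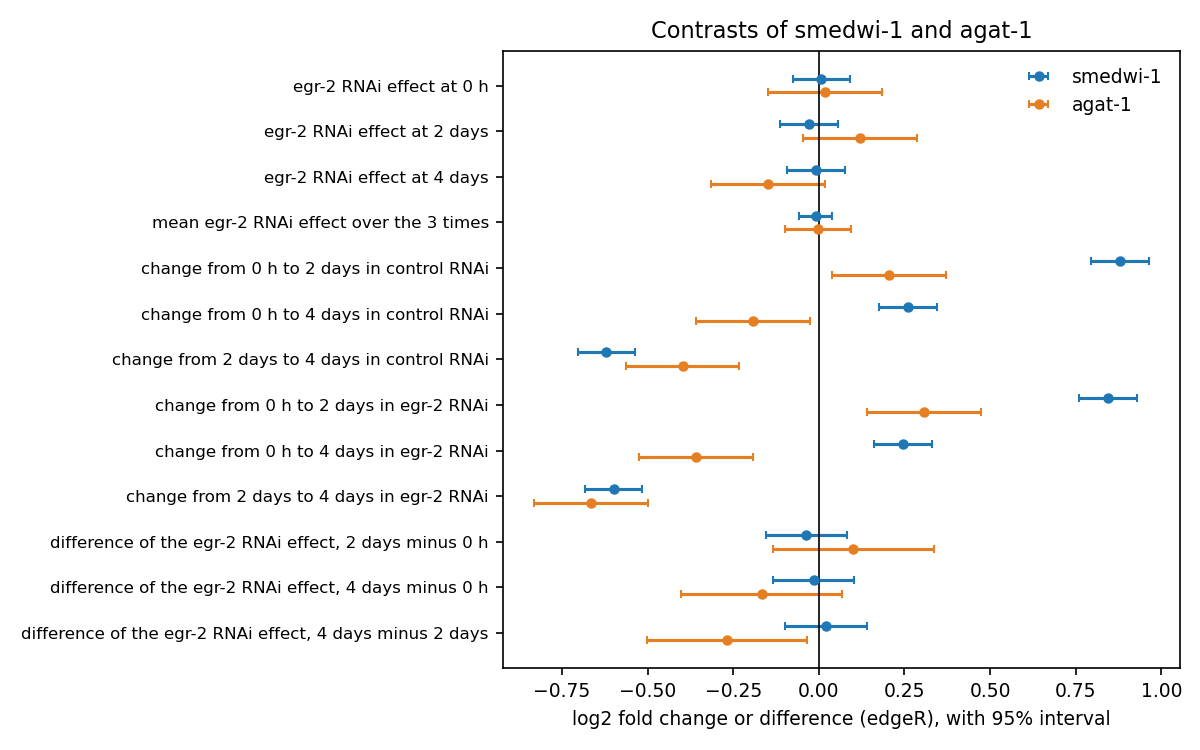
Log2 fold changes of smedwi-1 (blue) and agat-1 (orange) in 13 contrasts, on the horizontal axis, with 95% intervals from the quasi-likelihood fit; the vertical line marks no difference. The smedwi-1 rise to 2 days, at 0.88 and 0.84, stands apart, and the intervals of the RNAi effects include 0 for both genes at each of the 3 times.

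The authors' deposited table holds 7 of these comparisons. For the RNAi effects on smedwi-1 the authors' deposited table lists log2 fold changes of -0.0046, -0.030 and -0.0070 at 0 h, 2 days and 4 days, with false discovery rates of 0.97, 0.92 and 0.99. For agat-1 the authors' deposited table lists 0.0062, 0.12 and -0.15, with rates of 0.97, 0.71 and 0.51. For the control change of agat-1 the rates in the authors' deposited table lie on either side of 0.05, at 0.0489 from 0 h to 2 days and 0.0519 from 0 h to 4 days.

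The order of the 6 groups differed between the genes. For smedwi-1 the means fell into 3 pairs by time, from 2 days through 4 days to 0 h. Within each pair the RNAi conditions overlapped and their means differed by 19.4, 3.34 and 2.74 CPM, less than the pooled SD of 33.8, 16.1 and 13.8 CPM. Between pairs the ranges did not overlap, with gaps of 324 and 99.5 CPM between neighbours. For agat-1 the order ran from egr-2 RNAi and control RNAi at 2 days, through egr-2 RNAi and control RNAi at 0 h, to control RNAi and egr-2 RNAi at 4 days. All 5 pairs of neighbours overlapped in their ranges. Between egr-2 RNAi and control RNAi at 0 h the order turned without replicate 1 of egr-2 RNAi.

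The genes also differed in how much replicates varied. The coefficient of variation within a group was 0.944% to 3.66% for smedwi-1 and 4.79% to 12.8% for agat-1. Counting error alone, with no allowance for amplification, would give at most 1.23% and 1.52%. On the log2 scale the SD within groups was 0.041 for smedwi-1, and 6.94% of the 346 IDs within 2-fold of its abundance varied less. For agat-1 it was 0.13, and 82.9% of the 852 IDs within 2-fold of its abundance varied less.

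Per length the genes were about equally abundant, with agat-1 higher at 0 h and smedwi-1 higher afterwards. In control RNAi fragments smedwi-1 stood at 204 ± 2.47, 376 ± 13.8 and 244 ± 2.31 RPKM at 0 h, 2 days and 4 days (SD, n = 4), where RPKM is TMM-normalised CPM per kilobase of contig. For agat-1 the values were 245 ± 15.9, 282 ± 36.1 and 214 ± 22.5 RPKM (SD, n = 4). The ratio of agat-1 to smedwi-1 within a library does not depend on scaling. In control RNAi libraries it was 1.199 ± 0.0753 at 0 h, 0.755 ± 0.122 at 2 days and 0.877 ± 0.0916 at 4 days (SD, n = 4). The egr-2 RNAi libraries had ratios of 1.21 ± 0.0963, 0.835 ± 0.0980 and 0.796 ± 0.0458 (SD, n = 4). Every 0 h library had a ratio of at least 1.11 and every later library one of at most 0.942.

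**Figure D3:**
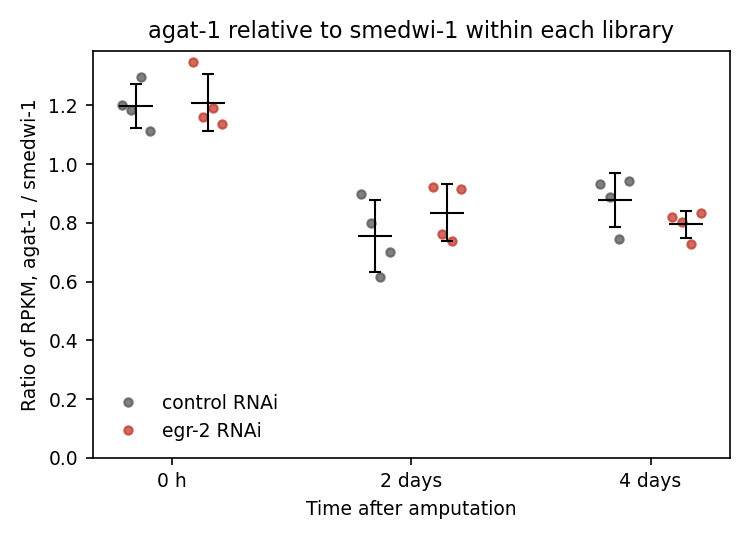
Ratio of agat-1 to smedwi-1 in RPKM within each library (vertical axis) against time after amputation; points are libraries, black bars the mean and SD of 4 libraries, grey control RNAi and red egr-2 RNAi. All 0 h libraries lie above 1.11, and all later libraries at or below 0.942.

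The ratio was compared by a two-sided exact permutation test on its log2, in 9 comparisons. With 4 libraries against 4 the smallest p it can give is 0.029, and this was reached for 0 h against each later time in both RNAi conditions. With 4 of the 9 comparisons at that floor the adjusted p was 0.064, so these differences failed the correction although the groups did not overlap. From 0 h to 2 days the log2 ratio changed by -0.68 (SE 0.13) in control and by -0.54 (SE 0.10) in egr-2 RNAi libraries. From 0 h to 4 days it changed by -0.46 (SE 0.091) and by -0.60 (SE 0.070). Without replicate 1 of egr-2 RNAi at 0 h the changes in egr-2 RNAi were -0.48 to 2 days and -0.55 to 4 days. Between RNAi conditions the log2 ratio differed by 0.011 (SE 0.072) at 0 h, 0.15 (SE 0.14) at 2 days and -0.14 (SE 0.090) at 4 days, with adjusted p = 0.89, 0.40 and 0.30 in the exact permutation test. With replicate 1 of egr-2 RNAi left out the difference at 0 h was -0.043.

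At 2 days of regeneration libraries with more smedwi-1 had less agat-1. Among control RNAi libraries replicate 3 had the highest smedwi-1 (1033 CPM) and the lowest agat-1 (348 CPM), and replicate 1 had the lowest smedwi-1 (948 CPM) and the highest agat-1 (465 CPM). Among egr-2 RNAi libraries replicate 3 again had the highest smedwi-1 (999 CPM) and the lowest agat-1 (402 CPM). At the other end replicate 4 had the lowest smedwi-1 (931 CPM) with agat-1 at 465 CPM, while replicate 1 had the highest agat-1 (475 CPM). Because libraries separate by time, the relation was computed within each time point over its 8 libraries, as 3 relations. At 2 days Pearson's r of the log2 CPM was -0.95 (exact permutation p of 9.9e-04, adjusted 0.0030) and Spearman's rho was -0.95 (exact permutation p of 0.0011, adjusted 0.0034). Without the 2 libraries farthest from the median of smedwi-1, r was -0.90. The permutations treat the 8 libraries as exchangeable, and the replicate number was not taken into account. Replicates 1 and 3 deviated from their group means in the same directions in both RNAi conditions, and replicates 2 and 4 in opposite directions. Whether the relation holds apart from the replicate number was not tested.

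At the other times the relation did not pass the test. At 0 h r was 0.20 and rho 0.048 (exact permutation p of 0.68 and 0.93, adjusted 0.86 and 0.98), and r was 0.44 without the 2 farthest libraries. With replicate 1 of egr-2 RNAi left out it was 0.56 (adjusted p = 0.27, exact permutation). At 4 days r was 0.072 and rho -0.024 (exact permutation p of 0.86 and 0.98, adjusted 0.86 and 0.98), and r was -0.49 without the 2 farthest. Whether the relation differs between times was not tested. The relation at 2 days was as strong after the mean of each RNAi group was removed, with r of -0.94 (exact permutation p of 0.0087, adjusted 0.026, pairings exchanged within groups). That calculation was added after seeing the data, and the other tests were chosen with earlier results of these data known. Of the 9996 other IDs of at least 10 CPM, 18 had as low an r with smedwi-1 in these 8 libraries, agat-1 among them, and 9 had as low an r with agat-1, smedwi-1 among them. The libraries share their depth and scaling factor between both genes, and r at 2 days was -0.94 with total counts alone and -0.91 with RLE factors, which come from median ratios.

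**Figure D4:**
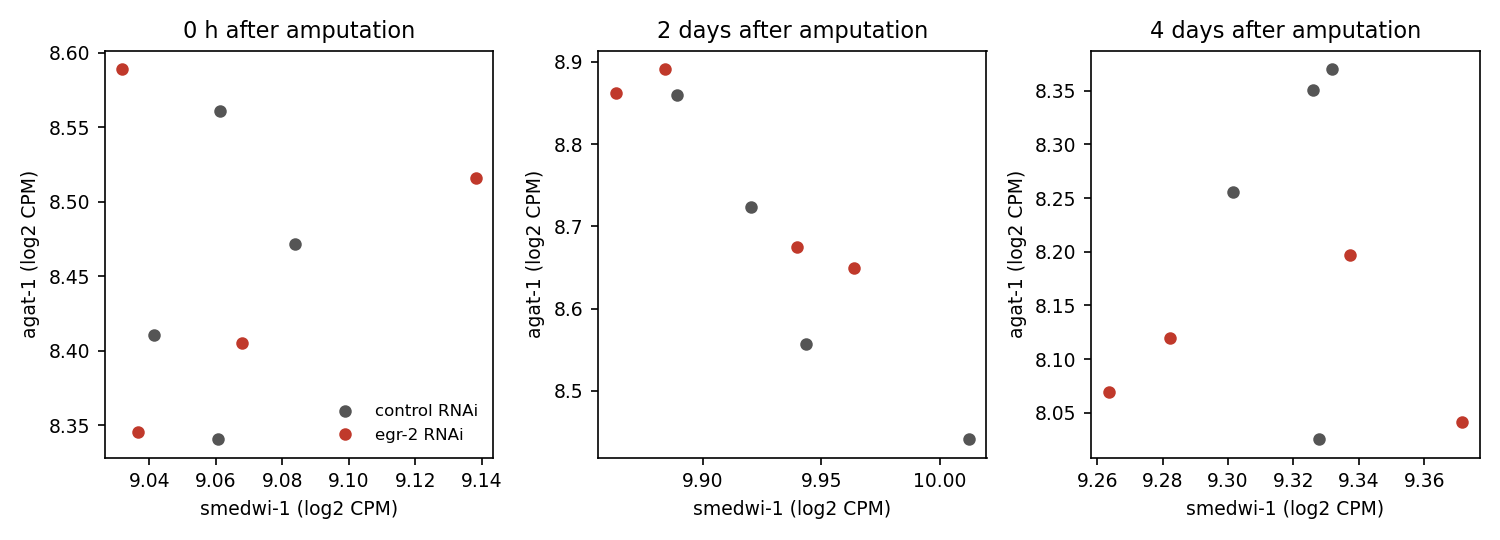
Levels of agat-1 (vertical, log2 CPM) against smedwi-1 (horizontal, log2 CPM) in the 8 libraries of each time point, grey control RNAi and red egr-2 RNAi; each panel has its own axis ranges. At 2 days the points fall along a descending line with r of -0.95, and at 0 h and 4 days they scatter, with r of 0.20 and 0.072.

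The IDs with a pattern most like that of each gene were found by Pearson's r of log2 CPM over the 24 libraries, among IDs of at least 10 CPM. This is a description over libraries that share depth and time, and no function is known from the tables for these contigs. For smedwi-1, 328 of 9996 IDs had an r above 0.9. The closest were dd_Smed_v6_10633_0_1, of 5867 bases, and dd_Smed_v6_141_0_1, of 1924 bases, both with an r of 0.98. By Spearman's rho they ranked 42 and 111, so which contig comes first for smedwi-1 depends on the measure. In control RNAi dd_Smed_v6_10633_0_1 went from 85.4 ± 5.45 to 234 ± 10.7 and 111 ± 4.20 CPM at 0 h, 2 days and 4 days (SD, n = 4). Its values in egr-2 RNAi were 77.3 ± 7.23, 206 ± 12.8 and 117 ± 7.44 CPM (SD, n = 4). For dd_Smed_v6_141_0_1 the control values were 1479.8 ± 23.3, 2157 ± 30.8 and 1648 ± 41.4 CPM (SD, n = 4). Its egr-2 RNAi values were 1415 ± 92.5, 2179.8 ± 67.6 and 1597 ± 27.9 CPM (SD, n = 4). The like shape of the course follows from the choice by r over these same libraries. The size was not part of the choice and differed, with log2 fold changes to 2 days in control RNAi of 1.45 and 0.54 against 0.88 for smedwi-1.

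For agat-1, 8 of 9996 IDs had an r above 0.9 by this measure. The closest were dd_Smed_v6_899_0_1, of 1760 bases, with an r of 0.97, and dd_Smed_v6_2385_0_1, of 1569 bases, with an r of 0.95. In control RNAi dd_Smed_v6_899_0_1 had 398 ± 27.7, 453 ± 63.1 and 370.2 ± 41.4 CPM (SD, n = 4). In egr-2 RNAi it had 395 ± 22.4, 469 ± 39.1 and 318 ± 11.8 CPM (SD, n = 4). The values of dd_Smed_v6_2385_0_1 were 106 ± 8.71, 129 ± 11.7 and 81.9 ± 8.01 CPM in control RNAi and 95.5 ± 8.93, 129.8 ± 8.84 and 69.9 ± 2.87 CPM in egr-2 RNAi (SD, n = 4). Over the deviations of 24 libraries from their group means the r with agat-1 was 0.95 and 0.87, while the 2 contigs nearest to smedwi-1 had 0.35 and 0.46 with it. Since the contigs were picked by r over the same libraries, these values partly restate the choice. Of the 9996 IDs, 76 had a deviation r above 0.7 with agat-1 and 20 with smedwi-1. None of the 4 contigs was called for an RNAi effect at any time by edgeR's quasi-likelihood test, with the lowest adjusted p at 0.14.

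**Figure D5:**
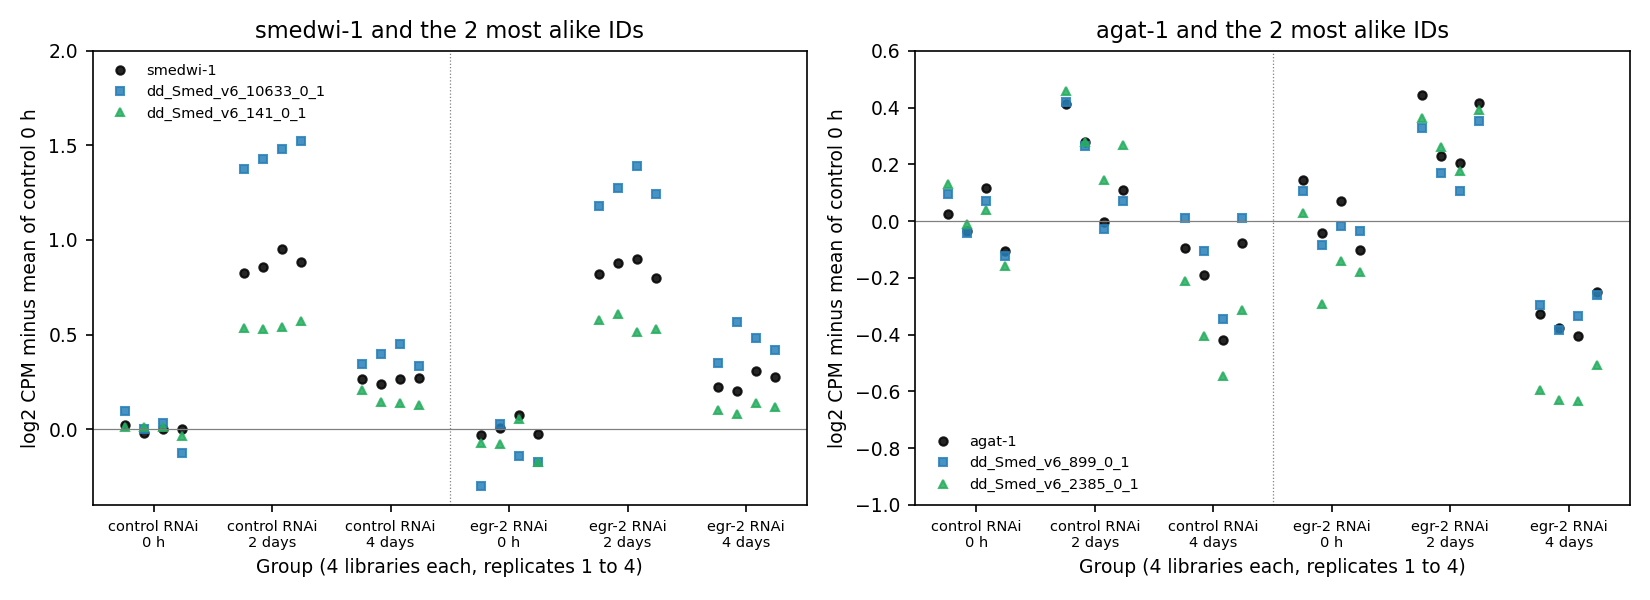
Log2 CPM minus the mean of control RNAi at 0 h (vertical) in the 24 libraries, by group (horizontal, 4 libraries each), for smedwi-1 with its 2 most alike IDs (left) and agat-1 with its 2 most alike IDs (right). Both panels show contigs picked for their r with the gene over these same libraries, so the shared shapes follow from the choice. Shifts within groups, which partly restate the choice, had an r with the gene of 0.35 and 0.46 in the left panel. In the right panel it was 0.95 and 0.87. In the left panel the sizes of the rise to 2 days differ.

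By abundance smedwi-1 ranked 166 and agat-1 416 of the 19761 tested IDs in mean CPM, and 414 and 446 per length.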

How the data were processed

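The authors deposited raw counts per transcript contig for 24 libraries, 1 column each, with IDs of the dd_Smed_v6 transcriptome assembly; 0 columns were left unmatched to a sample. Per the submitters' processing notes Bowtie2 2.3.1, featureCounts of Subread 1.6.3 and FastQC 0.11.5 were used, and the series' design text adds BBDuk and edgeR. Its settings for strand and for reads that match several contigs are not stated in the sources used. The authors also deposited log2 fold changes and false discovery rates, which are adjusted p-values, for 7 comparisons of 16812 IDs. Those are cited only as the authors' deposited table.

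Counts were fitted with edgeR 4.0.16 (R 4.3.3), with TMM factors, filterByExpr (minimum count 10, minimum total 15), group means over 24 libraries and the quasi-likelihood test, adjusted over 19761 IDs. The filter kept 99.91% to 99.95% of counts. Intervals of 95% came from the fitted information matrix and the quasi-dispersion. The 36 replicate pairs differed by more than counting noise (chi-square per degree of freedom 2.53 to 25.9), so each library counted once. The fit was tested on simulated data. Alternatives were RLE factors, total counts alone, other filters, DESeq2 1.42.0, a likelihood ratio test, only the compared groups, a replicate block and omission of libraries. Counting error is 1 over the square root of the count.

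The members, the tests and the rule that names the 2 most alike IDs of each gene were chosen with earlier results of these data known. With no annotation, lists of other markers were not used here, and no sequence of either contig is printed.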

Additional observations from a re-analysis of the deposited data

How the results depend on the processing

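Leaving aside single omitted libraries, 237 of 269 recomputed values counted as unchanged. For tested values this means the same direction and side of the threshold. For the order of groups and the most alike ID it means the same places or first rank. The count includes the paired ratio comparisons, which could not pass the threshold. None of the RNAi effects or interactions was called in any setting, and near 0 their signs turned. The effect at 0 h on smedwi-1 was -0.00071 with RLE factors, -0.057 with total counts, -0.0047 with the CPM filter, -0.00040 in DESeq2 and -0.016 with only the compared groups. At 4 days it was 0.00057 with total counts, 0.0076 without the 6 libraries numbered 1 and 0.0013 with only the compared groups. The smedwi-1 interaction of 4 days minus 0 h was 8.7e-05 with RLE factors, 0.058 with total counts and 0.0012 with only the compared groups, and that of 2 days minus 0 h was 0.015 with total counts. The agat-1 effect at 0 h was -0.047 with total counts, -0.018 without the libraries numbered 1 and -0.0053 with only the compared groups, and its mean effect was 0.0056 without the libraries numbered 1.

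The change of agat-1 from 0 h to 4 days in control RNAi was called with RLE factors and in DESeq2 (-0.21 in both), the CPM filter (-0.19), the compared groups alone (-0.21), the replicate block (-0.20) and without the libraries numbered 1 (-0.22). With total counts alone it turned to 0.072, and that in egr-2 RNAi, at -0.021, was no longer called. The control rise to 2 days was 0.13 and not called without the libraries numbered 1. The cause was not tested.

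The relation of both genes at 4 days was -0.018 with total counts and -0.045 with RLE factors, and every setting kept that at 2 days. Of the 6 places in the order of smedwi-1, 2 were kept with total counts and 4 with RLE factors. For agat-1, 4 were kept with total counts or without egr-2 RNAi 0 h replicate 1. The ID most like smedwi-1 came second with total counts (r of 0.99) and had a rho of 0.94 as Spearman's measure. Without egr-2 RNAi 0 h replicate 1 it stayed first, but dd_Smed_v6_141_0_1 ranked 5, while the 2 IDs most like agat-1 kept their ranks.

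Omitting 1 compared library gave -0.015 to 0.021 and -0.027 to 0.0085 for smedwi-1 effects at 0 h and 4 days, and -0.036 to 0.0074 and -0.0031 to 0.039 for its interactions of 4 days minus 0 h and minus 2 days. For agat-1 it gave -0.023 to 0.060 at 0 h, -0.026 to 0.022 for the mean effect, 0.13 to 0.27 for the control rise to 2 days and -0.23 to -0.12 for the control change to 4 days. The ratio's RNAi difference at 0 h ran from -0.043 to 0.050.

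Deviations of same-numbered libraries were weakly related: 5 of 60 correlations were over 0.1, and 0 of 15 pairs of groups had every correlation over 0.1. All those over 0.1, from 0.11 to 0.19, were between libraries numbered 1. In all 6 groups replicate 1 lay above the group mean for agat-1, by 0.013 to 0.21 on the log2 scale, while for smedwi-1 it lay on either side. At 2 and 4 days replicate 3 lay below the group mean for agat-1 and above it for smedwi-1 in both RNAi conditions. At 0 h replicate 3 lay above the group mean for agat-1 in both. What libraries of the same number share was not tested. The replicate block changed 1 call, that of agat-1 above. Sign flips of the paired ratio cannot go below a p of 0.125.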
